A study of Mus musculus with 13 samples.

Results

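Whether mouse embryonic fibroblasts keep the transcription factors of the mesenchymal state while Foxn1 is switched on was examined through 9 genes, Snai1, Snai2, Twist1, Twist2, Zeb1, Zeb2, Prrx1, Foxc2 and Tcf21. They were chosen by name, as factors of the epithelial-mesenchymal transition (EMT) and of fibroblast identity, and not by their values. All 9 were among the 24394 genes of the count table, and 8 passed the filter on low counts. Tcf21, a factor of fibroblasts and mesothelium, had 9 counts in Epcam-positive replicate 1 and 0 in the other 12 libraries, so it was not tested.

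The study asked how Foxn1, the master regulator of thymic epithelium, programs fibroblasts into induced thymic epithelial cells (iTECs). The starting cells were primary mouse embryonic fibroblasts (MEFs) of embryonic day E13.5 with the genotype iFoxn1/+, a Foxn1 transgene that Cre switches on, and they had been passaged at most 5 times. A Cre expression plasmid, pPGK-Cre-bpA, was delivered by Nucleofection, and cells were isolated by flow cytometry. The 13 RNA-seq libraries comprised 2 of MEFs as the negative control, named in the count table as having had no Cre, 2 of iTECs at day 2 after programming and 3 at day 10. A further 4 came from day 12 iTECs sorted on Epcam, an epithelial surface protein, 2 negative and 2 positive, and 2 came from fetal thymic epithelial cells (TECs) of embryonic day E15.5 as the positive control. The genotype label was blank and 1 protocol text stood under every sample, so the genotype of the fetal TECs is not stated. No label says whether replicates came from separate embryos or cultures, so the p-values measure only the spread between these libraries, which may be technical.

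In an EMT, zinc finger factors of the Snail and Zeb families bind E-box sites in the promoters of epithelial genes such as Cdh1 and silence them. Basic helix-loop-helix factors of the Twist family, the paired-related homeobox factor Prrx1 and the forkhead factor Foxc2 promote or hold the mesenchymal state, and Prrx1 marks limb mesenchyme. Epithelial regulators of the Grhl, Ovol and Esrp families act in the opposite direction. In the fetal thymus the epithelium is surrounded by a capsule of mesenchyme.

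The E-box variant that Snail and Zeb factors favour, CACCTG or CAGGTG (each the reverse complement of the other, so both strands are covered), was looked for in the 250 bases before each RefSeq transcript start (GRCm38.p6). It was present in 5657 of 32851 windows over all genes, or 17.2%. Of 30 epithelial genes known as targets of EMT repressors, 21 had an entry, and 16 of their 28 windows (57.1%) held the letters. These windows belong to 14 of the 21 genes, and Cdh1 had no entry. For 19 epithelial regulators that oppose EMT, 4 of 15 windows (26.7%) held them, and for 26 mesenchymal effector genes 0 of 16 did. Of the 9 factors 6 had an entry (all but Snai2, Zeb1 and Foxc2), and 1 of their 9 windows (11.1%), that of Snai1, held the letters. The windows of 4 genes that recur below are shown: Epcam, by which the day 12 cells were sorted, the keratin genes Krt8 and Krt18, and Snai1. The E-boxes are in capitals and begin 187 and 19 bases before the start of Epcam, 111 before that of Krt8, 214 before that of Krt18 and 126 before that of Snai1. In that order the windows are chr17:87635729-87635978 (plus strand), chr15:102004343-102004592 (minus strand), chr15:102027966-102028215 (plus strand) and chr2:167537945-167538194 (plus strand), each printed 5′ to 3′ on the strand of its gene.
Epcam: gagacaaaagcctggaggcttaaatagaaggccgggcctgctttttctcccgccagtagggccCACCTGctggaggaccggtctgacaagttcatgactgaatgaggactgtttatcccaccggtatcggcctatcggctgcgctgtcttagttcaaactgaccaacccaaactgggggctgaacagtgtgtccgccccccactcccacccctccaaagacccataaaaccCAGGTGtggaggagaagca
Krt8: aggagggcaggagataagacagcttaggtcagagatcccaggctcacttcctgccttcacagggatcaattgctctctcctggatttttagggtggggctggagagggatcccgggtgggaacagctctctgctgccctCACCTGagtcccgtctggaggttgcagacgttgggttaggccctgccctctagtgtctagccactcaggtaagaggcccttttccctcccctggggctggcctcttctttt
Krt18: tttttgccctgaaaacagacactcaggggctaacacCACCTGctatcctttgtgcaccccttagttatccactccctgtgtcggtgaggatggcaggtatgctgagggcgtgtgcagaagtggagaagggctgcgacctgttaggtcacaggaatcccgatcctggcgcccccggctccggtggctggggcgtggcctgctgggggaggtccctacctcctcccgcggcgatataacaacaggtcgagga
Snai1: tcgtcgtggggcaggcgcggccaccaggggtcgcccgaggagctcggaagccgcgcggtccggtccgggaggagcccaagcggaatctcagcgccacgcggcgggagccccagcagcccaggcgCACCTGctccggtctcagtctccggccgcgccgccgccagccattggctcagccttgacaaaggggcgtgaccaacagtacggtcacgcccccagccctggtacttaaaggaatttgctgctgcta
These genes were chosen after their values were seen, and a match says only that the letters are in the window.

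Library totals ran from 35805780 to 86465460 counts, and levels are given as CPM, counts scaled to the library total with TMM factors. Xist and Y-linked levels are the exception, scaled to the library total without these factors. The second Epcam-positive library and the fetal TEC pair stood apart: across genes, the rank correlation of level with transcript length was 0.019, 0.005 and -0.036 in these 3 and 0.306 to 0.35 in the other 10. Gapdh, a glycolytic gene that every cell uses, had 128 to 188 CPM in these 3 but 7.2 CPM or less in the other 10, with 0 counts in 3 of them, so a low count in this table need not mean that the RNA was absent. Foxn1 itself was at 15.65 ± 3.75 CPM in MEFs (SD, n = 2) and at 292 to 468 CPM in the 9 programmed libraries. Xist, expressed in females, stood at 795 to 2280 CPM in the MEF and Epcam-negative libraries. It was at 1.34 CPM or less in the day 2, day 10 and Epcam-positive libraries, where 4 Y-linked genes summed to 46.3 to 326 CPM. In fetal TECs Xist was at 6.05 and 8.21 CPM and the Y-linked sum at 40.8 and 32.8 CPM, against a Y-linked sum of 0 in MEFs. Sex therefore cannot be told apart from programming in day 2, day 10 or Epcam-positive iTECs against MEFs, from cell type in fetal TECs against MEFs, or from the sort in Epcam-positive against Epcam-negative cells. Epcam-negative iTECs against MEFs, day 10 against day 2 and Epcam-positive against day 10 compare cells of 1 sex. A set of 10 macrophage markers summed to 2906 and 3061 CPM in MEFs, to 3.49 to 6.81 CPM at day 2, at day 10 and in Epcam-negative cells, to 202 and 11.8 CPM in Epcam-positive cells and to 497 and 518.5 CPM in fetal TECs. The defining macrophage genes Adgre1 and C1qa were at 0 in every day 2, day 10 and Epcam-negative library. A set of 8 fibroblast markers summed to 53690 and 58870 CPM in MEFs and to 5507 to 13340 CPM in the day 2, day 10 and Epcam-negative libraries. It summed to 29160 and 2713 CPM in Epcam-positive cells and to 4035 and 2479 CPM in fetal TECs. The part of these shifts in the levels of the 9 factors was not tested. In bulk RNA, fewer cells of a type and less RNA per cell cannot be told apart, and whether 1 cell held both mesenchymal factors and epithelial RNA was not measured.

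The mesenchymal factors did not follow 1 course in the programmed cells. Snai2 fell to 9.95% of its MEF mean by day 10 and Zeb1 to 12.4%, whereas the day 10 means of Prrx1 and Twist1 were 89.5% and 125% of those in MEFs, with neither difference past the threshold. Over the same interval Cdh1, which encodes E-cadherin and is the best-known target of Snail and Zeb repression, went from 0.138 and 0.361 CPM in MEFs to 42.4 to 46.6 CPM. Fetal TECs had almost no Prrx1 or Twist1 but more Snai2 than any programmed library. A gene was called when its p-value, adjusted over all 17004 genes tested with edgeR's quasi-likelihood test, was under 0.05.

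**Figure D1:**
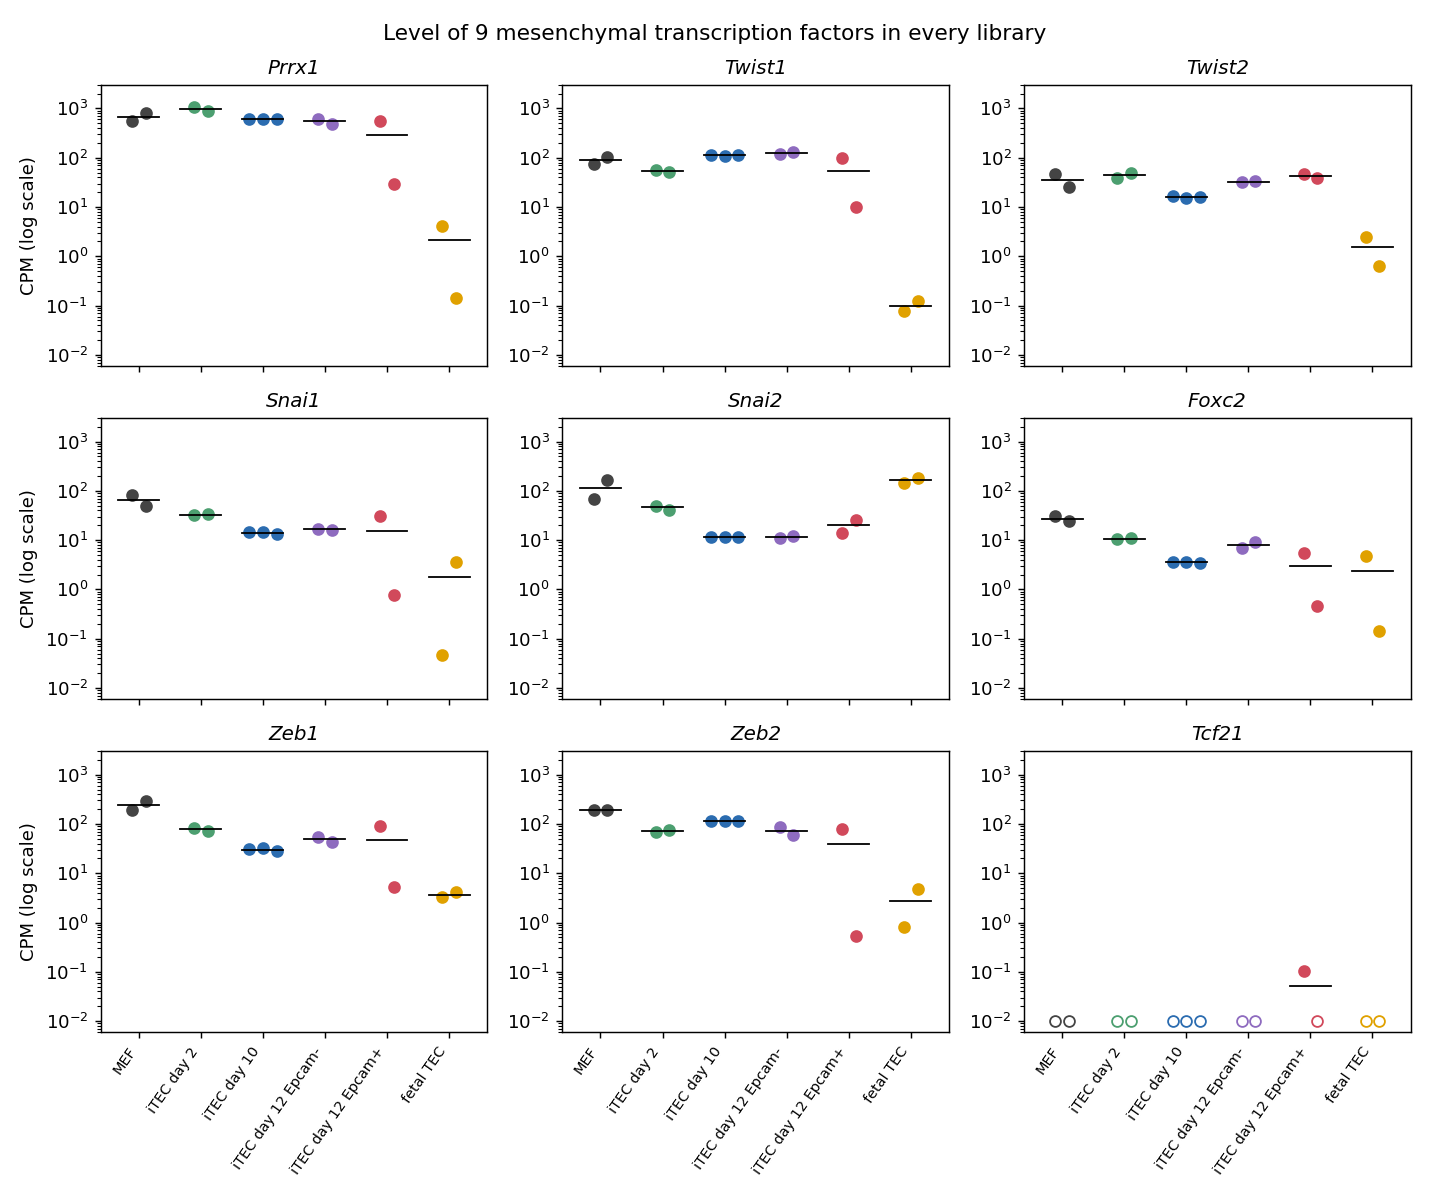
Each panel shows 1 factor, with the level in CPM on a log scale against the 6 groups, a point for each library and a bar at the group mean. Open points at the bottom are libraries with 0 counts. At day 10 Prrx1 lies inside the MEF range and Twist1 just above it, while at day 2 Prrx1 lies above both MEF libraries and Twist1 below them. Snai2 and Zeb1 step down, and Snai2 is high again in fetal TECs.

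Snai2 (mm10, chromosome 16, 14705852 to 14709385, plus strand), the Snail factor known for neural crest delamination, was called lower than in MEFs at day 10 and in both day 12 populations. It was at 67.3 and 166 CPM in MEFs, 50.2 and 41.8 CPM at day 2, and 11.4, 11.6 and 11.8 CPM at day 10. The Epcam-negative libraries had 11.1 and 12.3 CPM, the Epcam-positive pair 14.2 and 25.8 CPM, and fetal TECs 142 and 183.9 CPM. No programmed library reached the lower MEF library, and the fetal TEC libraries overlapped the MEF range. The day 2 difference from MEFs (-1.34 ± 0.43) did not pass the threshold (edgeR, adjusted p = 0.118). Day 10 was lower than MEFs (log2 change -3.33 ± 0.40, SE, edgeR, adjusted p = 0.000632) and lower than day 2 (-1.99 ± 0.39, edgeR, adjusted p = 0.00902). Both day 12 populations were lower than MEFs as well, with a log2 change of -3.32 ± 0.47 for the Epcam-negative (edgeR, adjusted p = 0.00179) and of -2.54 ± 0.45 for the Epcam-positive (edgeR, adjusted p = 0.00598). The call against day 2 was lost without day 2 replicate 1 (adjusted p = 0.0861) or day 2 replicate 2 (adjusted p = 0.0519), and the calls against MEFs held with each of the 13 libraries left out in turn.

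Snai1 (chromosome 2, 167538195 to 167542814, plus strand), its paralog and the factor that starts EMT at gastrulation, was at 82.3 and 48.3 CPM in MEFs and 32.5 and 33.6 CPM at day 2. It stood at 14.3, 14.7 and 13.4 CPM at day 10, and at 17.2 and 16.4 CPM in Epcam-negative cells. The Epcam-positive libraries had 30.4 and 0.77 CPM, and fetal TECs had 0.046 CPM, from 3 counts, and 3.59 CPM. The groups did not overlap between MEFs, day 2 and day 10, yet the day 10 difference from MEFs (-2.21 ± 1.33) did not pass the threshold (edgeR, adjusted p = 0.315). In a fit of the 10 libraries without the 3 that stood apart, the same difference was -2.18 ± 0.20 and passed (edgeR, adjusted p = 5.95e-05). Per kilobase of transcript, Snai2 was at 0.656 and 2.75 times Snai1 in MEFs and at 0.635 to 0.709 times at day 10. In fetal TECs and in Epcam-positive replicate 2 that balance was far on the side of Snai2, at 41.1 times Snai1 in fetal TEC replicate 2 and 26.8 times in the Epcam-positive library.

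Zeb1 (chromosome 18, 5591860 to 5775467, plus strand), the repressor of Cdh1 and of the miR-200 family, was at 192 and 295 CPM in MEFs and 82.9 and 72.0 CPM at day 2. At day 10 it was at 30.5, 32.1 and 28.2 CPM, and in Epcam-negative cells at 53.7 and 43.6 CPM. The Epcam-positive pair had 90.8 and 5.19 CPM, and fetal TECs 3.26 and 4.10 CPM. The MEF, day 2, day 10 and fetal TEC levels formed 4 steps with no overlap. The day 10 difference from MEFs was -3.01 ± 0.81 (edgeR, adjusted p = 0.0324), and it was -2.98 ± 0.20 among the 10 libraries (edgeR, adjusted p = 1.01e-05). In the fit of all 13 libraries the call was lost with 9 of the 13 left out in turn, each MEF, day 2, day 10 and Epcam-negative library, at adjusted p from 0.0554 to 0.172.

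Zeb2 (chromosome 2, 44983632 to 45117395, minus strand) acts on many of the same promoters, and macrophages also express it. It was at 193 and 189 CPM in MEFs, 69.3 and 75.4 CPM at day 2, and 115, 114 and 112 CPM at day 10. Epcam-negative cells had 87.4 and 59.8 CPM, the Epcam-positive pair 78.3 and 0.539 CPM, and fetal TECs 0.796 and 4.77 CPM. Day 10 thus lay above day 2 and below MEFs with no overlap, but neither difference passed the threshold in all 13 libraries (edgeR, adjusted p = 0.863 and 0.767). Among the 10 libraries Zeb2 was higher at day 10 than at day 2 (0.61 ± 0.16, edgeR, adjusted p = 0.0135), while Zeb1 was lower (-1.39 ± 0.19, edgeR, adjusted p = 0.00057). The ratio of Zeb1 to Zeb2 per kilobase was 1.56 and 2.46 in MEFs, 1.88 and 1.5 at day 2, and 0.394 to 0.444 at day 10. In the Epcam-negative libraries it was 0.966 and 1.15. The antisense gene Zeb2os, which overlaps Zeb2, was at 4.63 and 8.08 CPM in MEFs and at 1.82 CPM or less in the other 11 libraries, and the strand used in counting is not stated.

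Twist1 (chromosome 12, 33957671 to 33959829, plus strand), a regulator of cranial and limb mesenchyme, had 75.8 and 105 CPM in MEFs and 56.8 and 50.3 CPM at day 2. At day 10 it had 115, 110.1 and 116 CPM, above both MEF libraries, and in Epcam-negative cells 117 and 131 CPM. The Epcam-positive pair had 97.4 and 9.83 CPM, and fetal TECs 0.0766 and 0.122 CPM, from 5 and 6 counts. Day 10 against MEFs gave 0.33 ± 0.68 (edgeR, adjusted p = 0.83) and day 10 against day 2 gave 1.09 ± 0.70 (edgeR, adjusted p = 0.388). In the 10 libraries the rise from day 2 to day 10 passed the threshold (1.05 ± 0.16, edgeR, adjusted p = 0.000825), as did the lower level at day 2 than in MEFs (-0.69 ± 0.17, edgeR, adjusted p = 0.0127).

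Twist2 (chromosome 1, 91801461 to 91848028, plus strand), the dermal fibroblast paralog, shares 57.3% of its 50-base words with the overlapping gene Gm29100, so reads with several matches could bear on its level and on the ratio to Twist1. It had 46.5 and 25.2 CPM in MEFs, 38.6 and 50.0 CPM at day 2 and only 16.5, 15.1 and 16.3 CPM at day 10. It stood at 32.7 and 33.1 CPM in Epcam-negative cells. Twist2 was also high in both Epcam-positive libraries, at 47.7 and 39.1 CPM, and these did not overlap those of day 10. Fetal TECs had 2.47 and 0.649 CPM. Epcam-positive cells exceeded day 10 by 1.44 ± 0.47 without passing the threshold (edgeR, adjusted p = 0.11; unadjusted p = 0.0125). Per kilobase the ratio of Twist1 to Twist2 was 2.53 and 6.50 in MEFs, 2.28 and 1.56 at day 2, and 10.8 to 11.3 at day 10. It was 5.55 and 6.12 in Epcam-negative cells and 3.17 and 0.39 in the Epcam-positive pair. The 3 day 10 ratios lay above the ratios of every MEF, day 2 and day 12 library, and the ranges of these other groups overlapped in part.

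Prrx1 (chromosome 1, 163245119 to 163313710, minus strand) was at 545 and 815 CPM in MEFs and at 1080 and 887 CPM at day 2. It was at 617, 600.2 and 609.8 CPM at day 10, and at 599.6 and 490.5 CPM in Epcam-negative cells. The Epcam-positive libraries had 550.1 and 29.4 CPM, and fetal TECs 4.15 and 0.142 CPM. All 9 programmed libraries lay above both fetal TEC libraries, and the 3 day 10 libraries lay inside the MEF range. The day 10 mean was 609 ± 8.20 CPM against 680 ± 191 CPM in MEFs (SD, n = 3 and 2), a log2 difference of -0.16 ± 1.13 (edgeR, adjusted p = 0.989). Among the 10 libraries it was -0.13 ± 0.19 (edgeR, adjusted p = 0.581). The standard error of 1.13 in all 13 libraries leaves room for a difference in either direction.

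Foxc2 (chromosome 8, 121116171 to 121118895, plus strand), a forkhead factor of axial and vessel mesenchyme, was the lowest of the 8 tested factors per kilobase in every MEF, day 2, day 10 and Epcam-negative library. It had 30.4 and 24.0 CPM in MEFs, 10.7 and 10.9 CPM at day 2, and 3.55, 3.61 and 3.52 CPM at day 10. Epcam-negative cells had 7.0 and 9.23 CPM, the Epcam-positive pair 5.58 and 0.462 CPM, and fetal TECs 4.69 and 0.142 CPM. MEFs, day 2 and day 10 again did not overlap. The day 10 difference of -2.93 ± 1.13 from MEFs did not pass in all 13 libraries (edgeR, adjusted p = 0.115) and was -2.90 ± 0.16 among the 10 (edgeR, adjusted p = 3.85e-06). Tcf21 (chromosome 10, 22817281 to 22820174, minus strand) had 0.104 CPM in Epcam-positive replicate 1. In the other 12 libraries a count of 0 allows at most 0.0776 CPM (3 counts), a limit that covers counting error alone.

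The order of the group means differed between the factors. Snai1, Zeb1 and Foxc2 were highest in MEFs and second highest at day 2, and Zeb2 was highest in MEFs and second highest at day 10. Twist1 was highest in Epcam-negative cells, Prrx1 and Twist2 at day 2, and Snai2 in fetal TECs. In these orders the first 2 groups did not overlap for Snai1, Zeb1, Zeb2, Foxc2, Twist1 and Prrx1, and did overlap for Snai2 and Twist2. The groups were ordered by these same means, and the share of all genes without such overlap was not computed. The tally therefore shows no trait of the factors. The Epcam-positive pair overlapped both of its neighbours in the order for Snai1, Zeb1, Zeb2, Twist1, Twist2 and Foxc2.

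At day 2, 0 of the 8 tested factors were called against MEFs, where 2.65% of all 17004 genes were called lower and 2.87% higher. At an unadjusted p under 0.05 there was 1, Snai2, which was also the 1 factor that DESeq2 called. At day 10, 2 of 8 were called lower, Snai2 and Zeb1, and 0 higher, against a background of 6.58% lower and 9.42% higher. Between day 2 and day 10, 1 was called lower, Snai2, beside 4.41% of all genes lower and 8.24% higher. In Epcam-negative cells against MEFs, the comparison within 1 sex, 1 was called lower, Snai2, beside 4.53% lower and 7.37% higher. In Epcam-positive cells against MEFs, 1 was called lower, again Snai2, beside 4.40% lower and 15.9% higher. The median log2 change over the 8 factors was -1.16 at day 2 and -1.69 at day 10, where that over all genes was 0.00.

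Leaving out the 3 libraries that stood apart raised these counts, together with the counts over all genes. At day 2, 6 of the 8 were then lower than MEFs (Snai1, Snai2, Twist1, Zeb1, Zeb2 and Foxc2), beside 19.2% of 16300 genes lower and 20.3% higher. At day 10, 6 were lower (Snai1, Snai2, Twist2, Zeb1, Zeb2 and Foxc2), beside 27.3% lower and 29.4% higher, and Twist1 and Prrx1 did not pass. From day 2 to day 10, 6 were lower (Snai1, Snai2, Twist2, Zeb1, Prrx1 and Foxc2) and 2 higher (Twist1 and Zeb2), beside 24.2% lower and 27.2% higher. In Epcam-negative cells against MEFs, 5 were lower (Snai1, Snai2, Zeb1, Zeb2 and Foxc2) and Twist1 was higher (0.48 ± 0.16, edgeR, adjusted p = 0.0395), beside 24.6% lower and 28.6% higher. Single libraries moved the counts of the 13-library fit as well, for the factors and over all genes. Leaving out a library of any group but day 10 left that group with 1 library, so counts from those fits are not given here. Without day 10 replicate 1, 2 or 3, Snai2 alone was called at day 10 against MEFs. Over all genes 1426 of 16981, 1442 of 16965 and 1410 of 16985 were called in these fits.

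**Figure D2:**
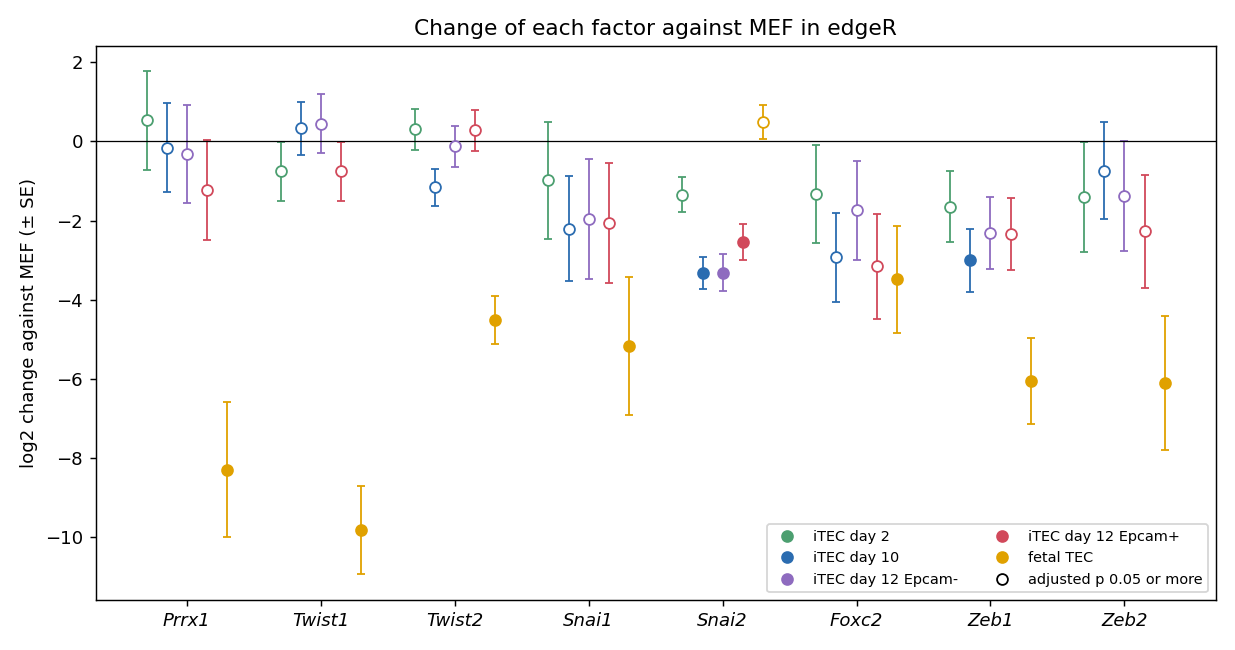
The log2 change against MEFs is plotted for the 8 tested factors, with the standard error as bars, in the edgeR fit of all 13 libraries. Colours mark the 5 groups and open points have an adjusted p of 0.05 or more. Snai2 has filled points at day 10 and in both day 12 groups, Zeb1 at day 10 among the programmed groups, and 7 factors in fetal TECs.

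Epcam, the gene of the sorting marker, was at 0.56 and 0.29 CPM in Epcam-negative cells, at 4.80 and 30.6 CPM in Epcam-positive cells and at 5.03 to 5.53 CPM in unsorted day 10 cells. Against Epcam-negative cells, 0 of 8 were called in Epcam-positive cells, with 0 at an unadjusted p under 0.05 and 0 by DESeq2, and 0.0176% of all genes were lower and 0.241% higher. Against day 10, 0 of 8 were called, with Twist2 alone under an unadjusted p of 0.05 and alone called by DESeq2, beside 0.0647% of genes lower and 0.406% higher. The 2 Epcam-positive libraries disagreed. Replicate 1 summed to 915 CPM over the 9 factors, as did the day 10 libraries (901 to 922 CPM), and replicate 2 to 111 CPM. Replicate 2 also had 27100 CPM of 8 thymic epithelial markers against 3070 CPM in replicate 1 (Krt8 and Epcam among them). It is the Epcam-positive library with few reads of long transcripts, and the part of that property in these differences was not tested. Without replicate 1, the log2 change from Epcam-negative cells was 1.14 for Snai2, -4.44 for Snai1, -3.66 for Twist1 and -3.23 for Zeb1. It was -7.09 for Zeb2, -4.21 for Prrx1 and -4.13 for Foxc2. Without replicate 2, it was 0.86 for Snai1, 0.90 for Zeb1, 0.0897 for Zeb2 and 0.0132 for Prrx1. Against day 10, Zeb1 was at -2.54 without replicate 1 and at 1.59 without replicate 2, so the direction of Zeb1 rests on the replicate. Each of these fits leaves 1 Epcam-positive library, so no calls are given for them here.

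RNA of epithelial genes known as targets of EMT repressors was present beside the factors. Binding and repression were not measured. Of 30 such genes, 28 were tested. At day 2, 6 were higher than in MEFs and 0 lower, beside 2.87% of all genes higher and 2.65% lower, and 10 were higher and 1 lower without the 3 libraries that stood apart. Krt18 and Krt8, the simple epithelial keratins, led at 892 and 987 CPM and at 23.9 and 29.2 CPM, from 0.682 CPM or less in MEFs. Cdh1 was still at 0.254 and 0.247 CPM in these day 2 libraries. At day 10, 19 of the 28 were higher and 2 lower than in MEFs, beside 9.42% and 6.58% of all genes (median log2 change 6.71, or 5.10 with the 11 genes at or under 3 counts in a group set to that floor in each library, where that over all genes was 0.00). Cdh1 was higher by 7.49 ± 0.47 on the log2 scale (edgeR, adjusted p = 2.68e-05) and the desmosomal gene Dsp by 10.59 ± 0.89 (edgeR, adjusted p = 0.000105). The desmosomal gene Pkp3 had 0 counts in both MEF libraries and 22.7 to 23.6 CPM at day 10, at least 456-fold higher against a floor of 3 counts in each library. Cgn, a tight junction gene, was called higher as well. The 2 lower ones were Tjp3 and Pkp2. Without the 3 libraries that stood apart, 23 were higher and 2 lower, beside 29.4% and 27.3%.

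Epithelial and mesenchymal RNA thus stood side by side in the day 10 libraries, at 5116 to 5341 CPM over the 28 epithelial genes and 901 to 922 CPM over the 9 factors. Prrx1 alone held 600.2 to 617 CPM of that factor sum, which therefore mainly follows Prrx1 and not the factors that fell. In MEFs the same sums were 273 and 193 CPM and 1233 and 1667 CPM. Fetal TECs had 17350 and 28640 CPM of the epithelial set and 157.5 and 197 CPM of the factors, most of it Snai2. Of the programmed libraries, Epcam-positive replicate 2 came nearest to these values, at 27360 CPM and 111 CPM. It shares the few reads of long transcripts with the fetal TEC libraries. Likeness in cell state and likeness in that library property cannot be told apart here. Epcam-negative cells still held 2620 and 2539 CPM of the epithelial set, with Cdh1 at 10.2 and 9.95 CPM.

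**Figure D3:**
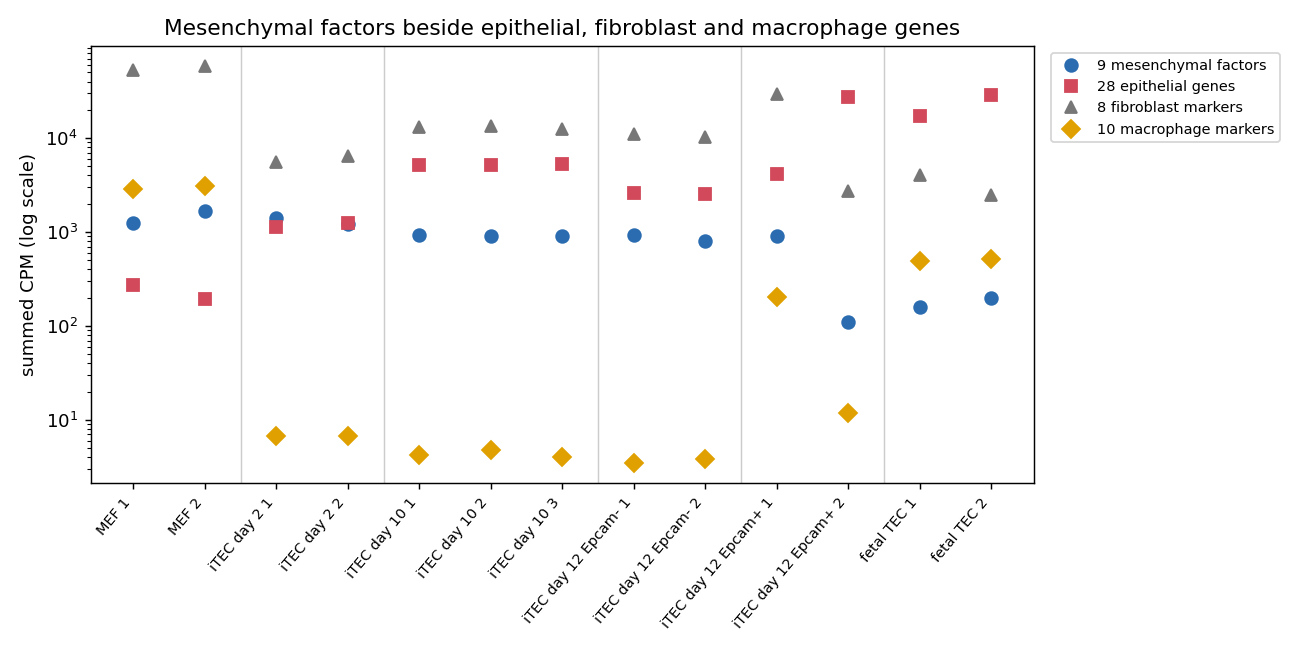
Summed CPM on a log scale is shown for each of the 13 libraries, for the 9 factors, 28 epithelial genes, 8 fibroblast markers and 10 macrophage markers. The factor sum stays between 795 and 926 CPM in the day 10, Epcam-negative and first Epcam-positive libraries. Their epithelial sum is at 2539 to 5341 CPM. The second Epcam-positive library sits with the fetal TECs for both of these sums and, like them, has few reads of long transcripts.

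Of 18 tested epithelial regulators that oppose EMT, 2 were higher than in MEFs at day 2 and 12 at day 10, with 0 lower at either time (median log2 change 6.91 at day 10, or 3.39 with genes at that floor), beside 2.87% and 9.42% of all genes higher. Without the 3 libraries that stood apart, 8 were higher and 3 lower at day 2, and 17 higher and 1 lower at day 10, beside 20.3% and 29.4% of all genes higher. Grhl1, a grainyhead factor of epithelial barriers, went from 0.124 and 0.0802 CPM in MEFs to 86.7 to 90.5 CPM at day 10 (9.70 ± 0.55, edgeR, adjusted p = 2.4e-05). Ovol1, a zinc finger factor of epithelia, rose by 7.22 ± 0.97 on the log2 scale (edgeR, adjusted p = 0.00115). Elf3, an Ets factor of epithelia, had 0 counts in both MEF libraries and 0.999 to 1.47 CPM at day 10 (edgeR, adjusted p = 0.000587), at least 24.3-fold higher. Levels relative to fetal TECs differed by gene, with Grhl1 higher at day 10 (2.43 ± 0.38, edgeR, adjusted p = 0.000851) and Elf3 lower (-6.84 ± 0.55, edgeR, adjusted p = 5.99e-05). Grhl2 and Ovol2, the members best known for repressing Zeb1, were at 0.333 and 0.155 CPM or less in every programmed library, against 40.4 and 44.1 CPM of Grhl2 in fetal TECs. They fall outside the rule for naming genes and were picked after their values were seen.

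Mesenchymal effector genes encode the matrix, cytoskeleton and adhesion proteins of fibroblasts. Of 26, 5 were lower than in MEFs at day 2 and 10 at day 10, with 0 higher, beside 2.65% and 6.58% of all genes lower (median log2 change -2.06 at day 10, where that over all genes was 0.00). Without the 3 libraries that stood apart, 19 were lower and 1 higher at day 2, and 22 lower and 1 higher at day 10, beside 19.2% and 27.3% of all genes lower. Vim, the intermediate filament of mesenchyme, fell from 3476 and 2759 CPM to 261 to 273 CPM (-3.54 ± 0.67, edgeR, adjusted p = 0.00695). The collagen gene Col3a1 changed by -3.21 ± 0.58 on the log2 scale (edgeR, adjusted p = 0.00557), Lum, a matrix proteoglycan, by -4.29 ± 0.80 and Acta2, smooth muscle actin, by -2.41 ± 0.48. From day 2 to day 10, Dcn rose again by 4.06 ± 0.48 (edgeR, adjusted p = 0.000715) with Mmp2 and Lum, and 1 of the 26 fell, Itga5. Over all genes, 8.24% were higher and 4.41% lower. In the fit of 10 libraries, 9 of the 26 were higher and 9 lower between these days, beside 27.2% and 24.2% of all genes. Postn, a matrix gene, was at 10180 to 10390 CPM at day 10 against 5327 and 11490 CPM in MEFs, and it was 5.82 ± 0.72 higher than in fetal TECs (edgeR, adjusted p = 0.000285).

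Of 23 genes of the pathways that induce EMT, which encode mainly TGF-beta, BMP, Wnt and PDGF ligands, receptors and Smads, 2 were higher than in MEFs at day 10, Bmp2 and Bmp4, and 1 lower, Pdgfra, beside 9.42% of all genes higher and 6.58% lower. Without the 3 libraries that stood apart, 6 were higher and 12 lower, beside 29.4% and 27.3% of all genes. Bmp2 went from 0.498 and 0.582 CPM in MEFs to 9.18 to 9.58 CPM (4.13 ± 0.40, edgeR, adjusted p = 0.000186). Tgfb2, a ligand that induces EMT, was lower at day 2 (-3.00 ± 0.56, edgeR, adjusted p = 0.0144) and rose from day 2 to day 10 (2.88 ± 0.54, edgeR, adjusted p = 0.00764), with 173 and 299 CPM in MEFs, 31.4 and 27.6 CPM at day 2 and 214 to 220.0 CPM at day 10.

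Against fetal TECs, 6 of the 8 factors were called at day 10, 5 higher and 1 lower, beside 27.6% of all genes higher and 31.7% lower. Twist1 was higher by 10.16 ± 1.11 (edgeR, adjusted p = 0.000158) and Prrx1 by 8.14 ± 1.68 (edgeR, adjusted p = 0.0034). Zeb2, Twist2 and Zeb1 were higher by 5.36 ± 1.61, 3.35 ± 0.56 and 3.04 ± 0.91 (edgeR, adjusted p = 0.0175, 0.00126 and 0.0172). Snai2 was the 1 that was lower (-3.81 ± 0.41, edgeR, adjusted p = 0.000137). The calls of Zeb1 and Zeb2, which have long transcripts, were lost under an offset for transcript length (1.34 ± 0.60 and 2.66 ± 1.12, edgeR, adjusted p = 0.077 and 0.065). Prrx1 was 6.24 under that offset, and 12.05 without fetal TEC replicate 1. The call of Zeb1 was also lost without either fetal TEC library (adjusted p = 0.0954 and 0.078), and that of Zeb2 without fetal TEC replicate 1 (adjusted p = 0.0994).

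Against MEFs, fetal TECs had 7 of the 8 factors lower and 0 higher, beside 26.3% of all genes lower and 31.5% higher, and Snai2 alone did not pass (0.48 ± 0.43, edgeR, adjusted p = 0.345). Twist1 had a log2 change of -9.83 ± 1.11, Prrx1 of -8.30 ± 1.71, Zeb1 of -6.05 ± 1.08 and Twist2 of -4.52 ± 0.61 (edgeR, adjusted p = 0.000231, 0.00402, 0.00214 and 0.000547), and these calls held with each library left out. The sizes were less steady: Prrx1 ranged from -12.21 without fetal TEC replicate 1 to -7.37 without replicate 2, and Twist2 from -5.79 to -3.87 without the same libraries. Under the length offset Prrx1 was -6.35, Zeb1 -4.28 and Zeb2 -3.41. Zeb2 was also lower (-6.11 ± 1.70, edgeR, adjusted p = 0.0138), a call lost without fetal TEC replicate 1 (adjusted p = 0.0771). So was Snai1 (-5.17 ± 1.75, edgeR, adjusted p = 0.0297), a call lost without either MEF library or fetal TEC replicate 1 (adjusted p = 0.0659 to 0.0828). The change of Foxc2 was -3.49 ± 1.35 (edgeR, adjusted p = 0.0484), and that call was lost without 10 of the 13 libraries in turn, all but the Epcam-positive pair and fetal TEC replicate 1 (adjusted p = 0.0669 to 0.117). Both fetal TEC libraries are among the 3 with few reads of long transcripts, so the cell type, that library property and, against MEFs, sex cannot be told apart. Xist was at 6.05 and 8.21 CPM in fetal TECs and at 0.0667 CPM or less at day 10. The Y-linked sum was 40.8 and 32.8 CPM against 318 to 326 CPM. Whether fetal TECs and day 10 cells match in sex was not tested.

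Per kilobase of transcript, the make-up of the factor signal shifted with programming. Prrx1 took 28 and 31.9% of the summed CPM per kilobase in MEFs, 57.8 and 53.8% at day 2 and 45.8 to 46.1% at day 10. Twist1 took 15.6 and 16.5% in MEFs, 12.2% in both day 2 libraries and 33.9 to 35.0% at day 10. Together with these, the share of Snai2 went from 11.2 and 21.0% in MEFs to 2.74 to 2.88% at day 10. In fetal TECs Snai2 took 94.5 and 95.9%. Epcam-positive replicate 2 had no such single leader, with Twist2 at 38.3%, Snai2 at 31.6%, Twist1 at 15.0% and Prrx1 at 11.2%.

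**Figure D4:**
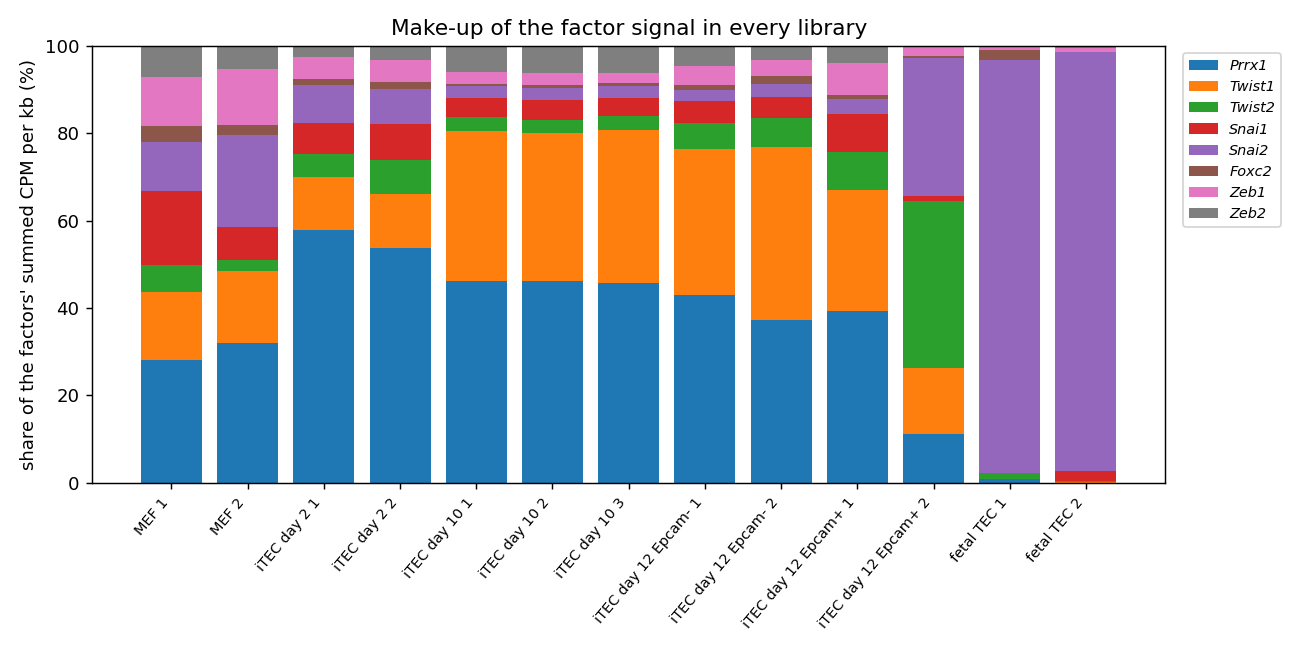
Each stacked bar is 1 of the 13 libraries, and each colour is the share, in percent, that a factor takes of the summed CPM per kilobase of the 8 tested factors and Tcf21. Prrx1 and Twist1 fill most of the day 10 and Epcam-negative bars, Snai2 fills the fetal TEC bars, and Epcam-positive replicate 2 is shared between Twist2 and Snai2.

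The genes whose log2 level followed each factor most closely over the 13 libraries were named by Pearson correlation, as a description over libraries that share groups and, in 3 cases, low counts of long transcripts. For Prrx1 they were Ppfia1, Dcp2 and Strn (0.997, 0.996 and 0.993), and for Twist1 Kdm4c, Col6a3 and Impad1 (0.994, 0.993 and 0.993). For Zeb1 they were P4ha1, Gdf11 and Dact3 (0.994, 0.988 and 0.986), and for Zeb2 Zfp507, Setd7 and Itch (0.992, 0.992 and 0.991). Twist2 was followed by Magee1, Lgals1 and Trim32 (0.976, 0.962 and 0.961) and Snai2 by Suclg2, Slc43a3 and Tnfrsf11a (0.981, 0.968 and 0.963). For Snai1 they were Wdr82, Rpl31 and Rnf150 (0.978, 0.974 and 0.969), and for Foxc2 Zranb3, Ipo9 and Zfp937 (0.968, 0.962 and 0.959). No factor had another of the 9 among its 3 nearest genes.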

How the data were processed

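The table holds raw counts of reads per gene for 13 libraries, deposited by the authors with gene symbols. Per the submitters' processing notes, FastQC, Trimmomatic, HISAT2, SAMtools, StringTie and DESeq2 were used, with build mm10; versions, strand setting and treatment of reads with several matches (not given in the sources used here) are unknown. Columns named for no Cre were taken as the MEFs, the only group that name fits. Genes were filtered with filterByExpr, leaving 17004 of 24394, and all 13 libraries were fitted together with edgeR 4.0.16 (R 4.3.3; TMM factors 0.705 to 1.16, quasi-likelihood test, common dispersion 0.296), with Benjamini-Hochberg adjusted p under 0.05 as the threshold over 9 comparisons. The code was checked on simulated data. Alternatives were DESeq2 1.42.0, other scalings and filters, a replicate block, a length offset, only the groups compared, 10 libraries and each library left out. Transcript lengths came from GENCODE. Same-numbered libraries of different groups correlated at -0.362 to 0.217 (30 pairs), so numbers were not used as pairs. Genes named are the 9 factors, up to 4 members of each list with the smallest p in the comparison described and the 3 genes most like each factor, where likeness used log2(CPM + 0.5) among genes with 5 CPM or more in the highest group. The factors, lists and alternatives were chosen with earlier results of these data known.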

Additional observations from a re-analysis of the deposited data

How the results depend on the processing

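The number of the 8 factors called was recomputed under 9 other settings and with each of the 13 libraries left out. DESeq2's size factors, no filter and a filter of 5 CPM in 2 libraries moved no count by over 1.5 times. The number called over all genes is given beside each count, except for the ranges with each library left out. Leaving out a library of any group but day 10 left that group with 1 library. The number called over all genes also moved in those fits, so these ranges show no trait of the factors. For day 2 against MEFs (0 called, beside 938 of 17004 genes), DESeq2's test called 1, beside 2321 of the 24394 genes in the table. The 10 libraries without the 3 that stood apart called 6, beside 6438 of 16300. A fit of only the groups compared called 3, beside 2949 of 14462. For day 10 against MEFs (2, beside 2720 of 17004), library size alone gave 1, beside 2417, and the replicate block 1, beside 1040. The 10 libraries gave 6, beside 9231 of 16300, and only the groups compared 6, beside 7959 of 15195. For day 10 against day 2 (1, beside 2151 of 17004), DESeq2 called 2, beside 3673 of 24394. The 10 libraries called 8, beside 8373 of 16300, and only the groups compared 8, beside 10927 of 14933. For Epcam-negative cells against MEFs (1, beside 2025 of 17004), DESeq2 called 2, beside 3771 of 24394, and the 10 libraries 6, beside 8671 of 16300. Only the groups compared gave 5, beside 4996 of 15111, and the length offset 2, beside 2482 of 16349. For Epcam-positive cells against MEFs (1, beside 3455 of 17004), DESeq2 called 3, beside 6284 of 24394. Only the groups compared gave 0 there, beside 0 of 14684, so that count says nothing about the factors. For Epcam-positive cells against day 10 (0, beside 80 of 17004), DESeq2 called 1, beside 3280 of 24394. The 10 libraries hold 1 Epcam-positive library, so no count is given for its comparisons. The causes of these moves were not tested. With each library left out, counts ranged from 0 to 3 at day 2, 1 to 4 at day 10, 0 to 4 for day 10 against day 2, 1 to 2 for Epcam-negative cells, 1 to 7 for Epcam-positive cells against MEFs, 0 to 7 against Epcam-negative cells and 0 to 5 against day 10.

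Some directions turned. Under library size alone, Prrx1 at day 10 against MEFs was 0.0115 and Twist2 in Epcam-negative cells 0.0966. In the 10 libraries, Epcam-positive replicate 1 gave Twist1 0.0986 against MEFs, Snai1 0.82, Zeb1 0.86 and Zeb2 0.0504 against Epcam-negative cells, and Foxc2 0.61 against day 10. The length offset turned Zeb1 between the Epcam sorts to 0.26 and Snai2 in fetal TECs against MEFs to -0.25. With each library left out, log2 changes ranged from -0.0713 to 0.82 for Twist2 at day 2, from -0.45 to 0.16 for Prrx1 at day 10 and from -0.499 to 0.37 for Twist2 in Epcam-negative cells. In Epcam-positive cells against MEFs, Twist1 ranged from -3.20 to 0.11 and Twist2 from -0.0999 to 0.75. Against Epcam-negative cells, Snai1 ranged from -4.44 to 0.86, Zeb1 from -3.23 to 0.90, Zeb2 from -7.09 to 0.0897 and Prrx1 from -4.21 to 0.0132. Against day 10, Snai1 ranged from -4.19 to 1.11, Zeb1 from -2.54 to 1.59 and Foxc2 from -2.94 to 0.65. Foxc2 at day 10 against fetal TECs ranged from -0.39 to 4.64, and Snai2 in fetal TECs against MEFs from -0.0151 to 1.26. Of all single values of the factors under these settings, 1400 kept direction and call, 104 gained a call, 40 lost one and 24 turned.

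With the replicate block, 4 calls were lost: Zeb1 at day 10 against MEFs (adjusted p = 0.14), Zeb2 at day 10 against fetal TECs (adjusted p = 0.0506), and Snai1 and Foxc2 in fetal TECs against MEFs (adjusted p = 0.0683 and 0.0527). No label says that same-numbered libraries are pairs. Where a library was left out, the lone library of its group is assumed to vary like the others, and comparisons with fetal TECs have no value in the 10 libraries. Tcf21 had 0 counts in every library but Epcam-positive replicate 1, which bounds its level and allows no test. Few counts in single fetal TEC libraries limit Twist1, Snai1, Prrx1 and Foxc2 there.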

Other observations

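Other mesenchymal and fibroblast transcription factors, a list of 43 genes that holds none of the 9 above, included called genes in both directions. At day 10, 9 were higher and 5 lower than in MEFs, beside 9.42% of all genes higher and 6.58% lower. Without the 3 libraries that stood apart 13 were higher and 15 lower, beside 29.4% and 27.3%, shares near those of all genes. The lower ones led with Osr1, an odd-skipped factor of limb and body wall mesenchyme, at 60.2 and 48.7 CPM in MEFs and 8.53 to 9.63 CPM at day 10 (-2.58 ± 0.33, edgeR, adjusted p = 0.000794). Tbx15, a T-box factor of dermal and skeletal mesenchyme, was at 187 and 237 CPM and then at 46.6 to 52.2 CPM (-2.09 ± 0.29, edgeR, adjusted p = 0.00118). Meox1 was also lower (-3.62 ± 0.56, edgeR, adjusted p = 0.00235). Lef1, a mediator of Wnt signals, was higher at day 10 (4.02 ± 0.57, edgeR, adjusted p = 0.00151), with 0.691 and 1.10 CPM in MEFs and 13.6 to 15.4 CPM at day 10. In fetal TECs it was at 52.5 and 20.9 CPM.

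Snai3, the third Snail gene, followed neither of its relatives. It was at 0.0276 and 0 CPM in MEFs, 0.689 and 0.870 CPM at day 2, 1.69 to 1.98 CPM at day 10, 3.12 and 3.91 CPM in Epcam-negative cells, 4.29 and 39.1 CPM in the Epcam-positive cells and 11.5 and 5.46 CPM in fetal TECs. It was called higher than in MEFs, whose libraries held 2 and 0 counts, in Epcam-negative cells (edgeR, adjusted p = 0.00531) and in Epcam-positive cells (edgeR, adjusted p = 0.00158). Msx2, a homeobox target of BMP signals, had 2.36 and 1.48 CPM in MEFs, 38.4 to 40.9 CPM at day 10, 46.3 and 39.4 CPM in Epcam-negative cells and 17.9 and 67.4 CPM in Epcam-positive cells. In fetal TECs it had 3 and 0 counts, and day 10 was called higher (edgeR, adjusted p = 8.18e-05). Alx1, a homeobox factor of craniofacial mesenchyme, was at 13.2 to 14.9 CPM at day 10 and at 0 counts in both fetal TEC libraries, at least 259-fold higher against a floor of 3 counts per library.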
